A study of Mus musculus with 10 samples.

Results

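The integrins and the numbered cadherins are the main receptors by which a cell holds on to its matrix and to its neighbours, and their transcripts were followed here in mouse preadipocytes exposed to bisphenol S (BPS). The genes were chosen by symbol alone: integrin alpha subunits, integrin beta subunits 1 to 8, and cadherins named Cdh with a number. This gave 49 genes of the 32903 with a transcript in the table, 26 integrin and 23 cadherin genes. Of these, 34 reached at least 10 estimated counts in at least 5 libraries, 21 integrin and 13 cadherin genes, and all 34 entered the test across genes. The cells were preadipocytes, the precursors of fat cells, of genotype WT C57 BL6, labelled iSAT and taken from male mice, and both groups shared that origin. The DMSO group held 5 libraries from cells given the vehicle DMSO, and the BPS group held 5 libraries from cells given 2.5 µM BPS dissolved in DMSO. BPS is a structural analogue of bisphenol A. Age, length of exposure and the source of the replicates (animals or dishes) are not given in the sources used here, so p-values measure the spread between these libraries, which may be technical.

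An integrin is a pair of 1 alpha and 1 beta subunit that spans the membrane, binds matrix proteins or other cells outside, and joins the actin cytoskeleton inside through talin, kindlin and vinculin. The beta 1 subunit pairs with most alpha subunits, so the alpha subunits decide whether a cell reads collagen, laminin or the arginine-glycine-aspartate (RGD) motif of fibronectin and related proteins. Classical cadherins bind the same cadherin on a neighbouring cell and hold on to actin through the catenins. In adipose progenitors, attachment, spreading and cell shape are known to bear on whether the cells take the fat cell fate.

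Total estimated counts ran from 37920689 to 42717227 per library, and the groups' totals were not told apart (exact two-sided permutation test, p = 0.452). The preadipocyte markers were all present, among them collagen I and Pdgfra. At an edgeR adjusted p under 0.05, 2 of 11, Cd34 and Thy1, were higher under BPS and 0 lower. Over all genes tested, 3.06% were higher and 1.82% lower. By log2 fold change, 6 of the 11 were above 0 and 5 below. Pdgfra was not called (log2 fold change -0.066, SE 0.019, edgeR adjusted p = 0.0777). DESeq2 called 2 of the 11 higher and 1 lower, against 3.88% and 2.64% of all genes. Adipocyte markers held 0 to 5 counts per library and epithelial markers 0 to 9. The library numbers in the labels put the 5 DMSO libraries before the 5 BPS libraries, so a batch in that order and the treatment cannot be told apart. In these bulk libraries, a change in the number of cells of a type and a change in RNA per cell cannot be told apart either.

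The members that differed all moved the same way, and the promoter windows of 3 of them are printed because they rose together. Each window runs from 250 bases before to 50 bases after the RefSeq start, 5′ to 3′ on the gene's strand, in build GRCm38.p6. Capitals mark every match to any of 7 motifs searched on both strands. These were the GC box GGGCGG, the AP-1 site TGANTCA, the TEAD site GGAATG, the aryl hydrocarbon receptor core GCGTG, the EGR site GCGTGGGCG, the TATA box TATAAA and the CArG box of serum response factor. The core GCGTG lies within the EGR site, so the searches for them overlap.
Itga8, chr2:12301895-12302194, minus strand: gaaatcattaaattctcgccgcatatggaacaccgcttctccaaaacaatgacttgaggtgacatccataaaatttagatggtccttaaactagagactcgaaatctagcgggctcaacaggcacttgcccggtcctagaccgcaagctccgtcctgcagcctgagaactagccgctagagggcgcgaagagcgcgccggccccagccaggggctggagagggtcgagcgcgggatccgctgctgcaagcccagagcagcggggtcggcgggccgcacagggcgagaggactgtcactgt
Itga4, chr2:79255176-79255475, plus strand: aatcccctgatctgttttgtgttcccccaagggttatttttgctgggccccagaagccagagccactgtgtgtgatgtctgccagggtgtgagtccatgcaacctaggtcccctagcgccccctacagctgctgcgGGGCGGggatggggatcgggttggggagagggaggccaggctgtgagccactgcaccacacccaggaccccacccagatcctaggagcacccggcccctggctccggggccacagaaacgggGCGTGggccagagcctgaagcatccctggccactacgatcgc
Itgb1, chr8:128685404-128685703, plus strand: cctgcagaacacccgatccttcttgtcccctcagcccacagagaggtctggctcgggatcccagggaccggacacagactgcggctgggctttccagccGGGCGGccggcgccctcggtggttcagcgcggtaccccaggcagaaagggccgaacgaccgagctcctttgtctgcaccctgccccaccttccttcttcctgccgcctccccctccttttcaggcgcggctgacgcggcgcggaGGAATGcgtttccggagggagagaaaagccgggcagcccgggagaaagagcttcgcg
The Itga4 window held 1 GC box, at bases 137 to 142, and 1 GCGTG core, at bases 259 to 263. The Itgb1 window held 1 GC box, at bases 100 to 105, and 1 GGAATG, at bases 244 to 249. The letters of none of the 7 motifs were in the Itga8 window. Among 32851 promoter windows of that length, 35.7% held the GC box, 32.4% the GCGTG core, 14.7% GGAATG, 13.6% the TATA box, 7.81% the AP-1 site, 1.63% the CArG box and 0.612% the EGR site. These matches describe the sequence and are not evidence of binding.

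Under BPS, 4 of the 34 genes rose and 0 fell, at an adjusted p under 0.05 in the quasi-likelihood test of edgeR, adjusted by Benjamini-Hochberg over 14597 genes. The risers were Cdh3, encoding P-cadherin, and the integrin subunits Itga8, Itga4 and Itgb1. Over all genes tested, 4.88% were called, 3.06% as higher and 1.82% as lower. Scaled by library size alone, 334 of them were higher and 394 lower in place of 447 and 265, while the members called stayed 3 integrins and 1 cadherin. Of 21 integrin genes, 3 rose, or 14.3%, and of 13 cadherin genes 1 rose, or 7.69%. At an unadjusted p under 0.05, 10 integrin genes were higher and 0 lower, and 2 cadherin genes were higher and 0 lower, by the same edgeR test. Over all 14597 genes 10.2% were higher and 8.59% lower at that threshold, so the cadherin count lay near the background. DESeq2 called 4 integrin genes higher and limma-voom 3, each with 0 lower, and each called 1 cadherin gene, higher. Over all genes DESeq2 called 3.88% higher and 2.64% lower, and limma-voom 3.02% and 1.74%. The log2 fold change was above 0 in 16 of 21 integrin genes, with a median of 0.11, and in 7 of 13 cadherin genes, with a median of 0.017. Over all genes tested the median was 0.00039 and 50.2% were above 0. The BPS values lay wholly above the DMSO values in 3 integrin genes and 1 cadherin gene, the same 4 that were called, and wholly below in 0. Over all genes tested 4.19% lay wholly above and 2.71% wholly below.

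**Figure D1:**
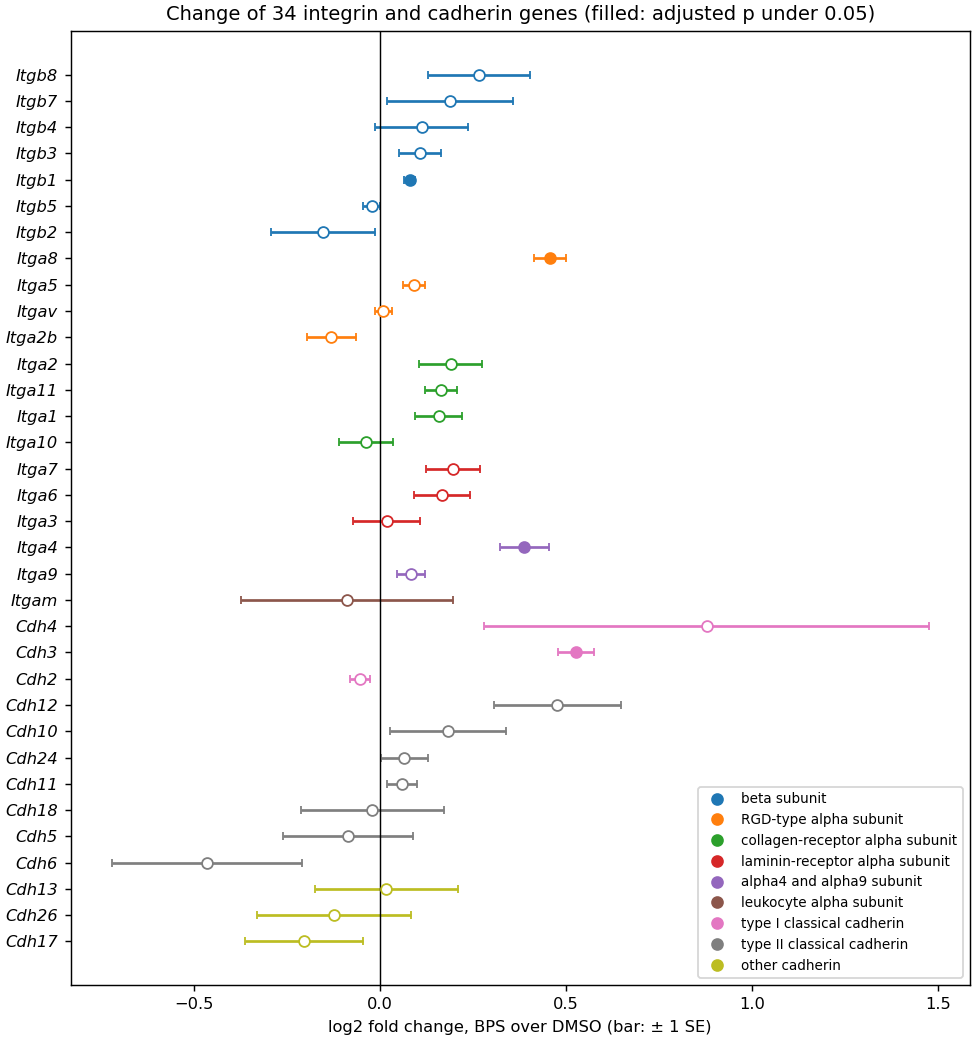
Log2 fold change of BPS over DMSO for the 34 genes, grouped by role, with bars of 1 SE from the edgeR fit; filled points had an adjusted p under 0.05. The 4 filled points, Itgb1, Itga8, Itga4 and Cdh3, lie to the right of 0, and the widest bars belong to genes with few counts, Cdh4 and then Itgam.

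Cdh3 showed the largest called change of any member. Cdh3 encodes P-cadherin, a classical cadherin best known from epithelia and hair follicles. It stood at 52.0, 53.7, 55.3, 51.6 and 48.1 CPM (counts scaled to a common library size) in DMSO replicates 1 to 5 and, in BPS replicates 1 to 5, at 67.5, 80.3, 77.8, 72.7 and 77.5 CPM. Libraries are listed in that order below. Every BPS library lay above every DMSO library, and BPS replicate 1 was the lowest of its group. The means were 52.1 ± 2.69 and 75.1 ± 5.10 CPM (SD, n = 5 each), a rise of 44.0%. The log2 fold change was 0.53 (SE 0.049), the edgeR adjusted p was 0.000108, and Cdh3 ranked 37th in size among the 447 genes that rose. The median absolute log2 fold change of the called genes was 0.16. Cdh3 kept its call in all 20 alternative settings, with log2 fold changes of 0.50 to 0.56. Cdh3 has 2 curated RefSeq transcripts in the table. The major one held 83.1% of its counts and had a log2 fold change of 0.52 (SE 0.084, edgeR adjusted p = 0.042 over transcripts), where 0.242% of 37588 transcripts were called higher. The minor one had 193 to 415 counts in DMSO and 374 to 603 in BPS, and its log2 fold change of 0.58 (SE 0.23) did not pass (edgeR adjusted p = 0.637).

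Markers of epithelium were near 0. Cdh1, encoding E-cadherin, had 0 to 8 counts per library, Epcam had 3 to 9, and the summed level of the 7 epithelial markers was 0.203 to 0.381 CPM in DMSO and 0.163 to 0.451 CPM in BPS. Of 7 mesothelial markers, 2 were tested and 1 of them, Krt19, was higher (log2 fold change 0.27, SE 0.065, edgeR adjusted p = 0.0367). The Krt19 call was lost in 9 of 19 alternatives, among them those without DMSO replicate 1, 3 or 4 or BPS replicate 2, 3 or 4 (edgeR adjusted p up to 0.0918). Wt1, the other one tested, stood at 0.849 ± 0.120 CPM in DMSO against 0.569 ± 0.188 CPM in BPS and was not called (log2 fold change -0.59, SE 0.22, edgeR adjusted p = 0.155). The summed mesothelial level, mostly Krt19, was 9.06 to 11.02 CPM in DMSO and 11.02 to 12.9 CPM in BPS. Msln and Upk3b, also on that list, were at 0 counts in every library, which allows up to 3 counts in each. The part of these markers in the Cdh3 result was not tested.

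The other classical cadherins of mesenchyme did not pass the test. Cdh11, or OB-cadherin, a type II cadherin of mesenchymal cells, stood at 772.4, 780.1, 824.7, 794.2 and 793.5 CPM in DMSO and, in BPS, at 767.6, 874.6, 769.3, 834.9 and 885.5 CPM. The groups overlapped, and the log2 fold change was 0.059 (SE 0.040, edgeR adjusted p = 0.483). Cdh2, or N-cadherin, a type I cadherin of mesenchymal and neural cells, stood at 92.0 ± 3.46 CPM in DMSO against 88.6 ± 1.66 CPM in BPS. Its log2 fold change was -0.054 (SE 0.027, edgeR adjusted p = 0.305), and again the groups overlapped. Cdh24, a type II cadherin, stood at 6.89 ± 0.484 and 7.21 ± 0.388 CPM (edgeR adjusted p = 0.647).

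The remaining 9 cadherins with enough counts were low and none was called. Cdh5, the VE-cadherin of endothelium, had 106 to 207 counts per library, or 4.22 ± 0.810 CPM in DMSO against 3.98 ± 0.932 CPM in BPS (SD, n = 5 each), with a log2 fold change of -0.086 (SE 0.17, edgeR adjusted p = 0.852). The 10 endothelial markers, Cdh5 among them, summed to 20.03 to 26.1 CPM in DMSO and 19.2 to 25.2 CPM in BPS, and 0 of the 10 were called, 0 had an unadjusted p under 0.05, and DESeq2 and limma-voom called 0. Cdh10 had 29 to 53 counts per library and Cdh4, or R-cadherin, 0 to 39. Cdh4 had a log2 fold change of 0.88 with an SE of 0.60, and its 0 counts in DMSO replicate 4 allow up to 3. Cdh6, Cdh12, Cdh13, Cdh17, Cdh18 and Cdh26 had 7 to 40 counts per library. Their log2 fold changes ran from -0.47 (Cdh6, SE 0.26) to 0.48 (Cdh12, SE 0.17), so at this depth only large differences in them were detectable. Another 10 cadherins stayed under the count minimum. Cdh23 (5 to 15 counts), Cdh15 (3 to 13), Cdh7 (4 to 12) and Cdh19 (2 to 11) came nearest, Cdh1, Cdh9, Cdh16, Cdh20 and Cdh22 had 0 to 9, and Cdh8 had 0 in every library, which allows up to 3 counts in each.

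Among the alpha subunits that recognise RGD, Itga8 rose and the far more abundant Itgav and Itga5 did not pass. Itga8, the alpha 8 subunit, pairs with beta 1, binds nephronectin and fibronectin, and is best known from kidney mesenchyme and contractile cells. It stood at 20.1, 21.0, 19.3, 19.98 and 21.6 CPM in DMSO and, in BPS, at 27.3, 27.4, 27.4, 27.2 and 30.6 CPM. The groups lay well apart: the highest DMSO library was below the lowest BPS library by more than the whole DMSO range, and BPS replicate 5 was the highest of all. Means were 20.4 ± 0.910 and 28.0 ± 1.47 CPM (SD, n = 5 each), a rise of 37.1%. The log2 fold change was 0.46 (SE 0.043), and the edgeR adjusted p was 0.000108. Its major transcript, with 95.4% of its counts, had a log2 fold change of 0.50 (SE 0.11) but did not pass among transcripts (edgeR adjusted p = 0.153).

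Some markers of mural cells, the contractile cells of vessel walls, were also higher under BPS. The share called was 44.4%, all higher, against 3.06% of all genes called higher and 1.82% lower. Of the 9 mural markers, 4 rose: Acta2 (log2 fold change 0.37, SE 0.025), Des (0.66, SE 0.061), Mcam (0.36, SE 0.073) and Cspg4 (0.16, SE 0.040), with adjusted p by edgeR of 1.48e-05, 0.000106, 0.0158 and 0.0467. Cspg4 lost its call in 14 of 19 alternatives, with adjusted p from 0.0155 to 0.104 over all of them, and limma-voom called 3 of the 9. Those 14 include the fits without any 1 of the 5 DMSO libraries and without BPS replicate 3, 4 or 5. The summed mural level was 1088 to 1164 CPM in DMSO and 1405 to 1509 CPM in BPS, most of it Acta2, the smooth muscle actin that cultured fibroblasts also make. Rgs5, Myh11, Kcnj8, Abcc9 and Notch3 were not called, and none of the 9 was at 0 in every library. The part of such cells in the results for Itga8, Itga4, Itgb1 and Cdh3 was not tested.

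Itgav, the alpha V subunit, which pairs with several beta subunits and binds vitronectin, fibronectin and latent TGF-beta, stood at 567.2, 549.8, 536.5, 527.1 and 551.6 CPM in DMSO and, in BPS, at 538.8, 560.0, 533.6, 551.6 and 564.0 CPM. The groups overlapped throughout. Its log2 fold change was 0.0083 (SE 0.022, edgeR adjusted p = 0.894), and its sign changed when libraries were scaled by size alone. Itga5, the fibronectin receptor subunit, stood at 471.1, 453.5, 433.5, 452.2 and 469.8 CPM in DMSO and, in BPS, at 489.1, 507.2, 474.8, 499.3 and 460.1 CPM. All BPS libraries but replicate 5 lay above the DMSO libraries. Its log2 fold change of 0.092 (SE 0.030) did not pass (edgeR adjusted p = 0.106, and 0.0506 to 0.501 over the alternatives). Itga2b, the platelet alpha IIb subunit, had 198 to 270 counts per library and stood at 6.33 ± 0.303 CPM in DMSO against 5.78 ± 0.461 CPM in BPS (log2 fold change -0.13, SE 0.066, edgeR adjusted p = 0.316).

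**Figure D2:**
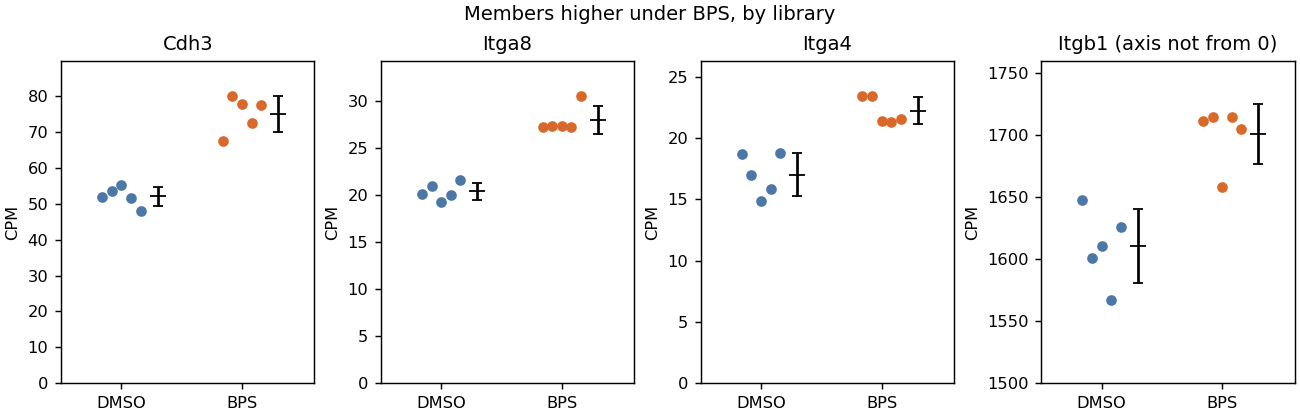
CPM of Cdh3, Itga8, Itga4 and Itgb1 in each library (points, replicates 1 to 5 from left to right) with the group mean and SD beside them (n = 5 each); the Itgb1 axis does not start at 0. In each panel all 5 BPS points lie above all 5 DMSO points, and the means differ by 44.0% for Cdh3 and by 5.62% for Itgb1.

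Itga4 rose while Vcam1, which encodes a cell-surface ligand of its product, fell. The alpha 4 subunit pairs with beta 1 or beta 7 and binds VCAM1 and fibronectin, mostly on leukocytes and some mesenchymal cells. Itga4 stood at 18.7, 16.96, 14.8, 15.9 and 18.8 CPM in DMSO and, in BPS, at 23.5, 23.4, 21.4, 21.3 and 21.6 CPM. The groups did not overlap, and DMSO replicates 1 and 5 came closest to the BPS range. Means were 17.0 ± 1.73 and 22.3 ± 1.11 CPM (SD, n = 5 each), a rise of 30.8%, with a log2 fold change of 0.39 (SE 0.065, edgeR adjusted p = 0.00651). Its only transcript in the table had the same fold change but an adjusted p of 0.087 in the edgeR fit over transcripts. Vcam1 fell from 207.7 ± 2.70 to 176.9 ± 3.40 CPM (log2 fold change -0.23, SE 0.017, edgeR adjusted p = 2.37e-05). Itga9, the other subunit of this branch and a receptor for tenascin C and osteopontin, stood at 30.5 ± 0.692 CPM in DMSO against 32.3 ± 1.78 CPM in BPS. Its log2 fold change of 0.083 (SE 0.038) did not pass (edgeR adjusted p = 0.262).

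The integrins of leukocytes, where Itga4 is best known, had few counts. Itgam, the macrophage alpha M subunit, had 12 to 34 counts per library (log2 fold change -0.090, SE 0.29), and Itgb2, its partner, had 41 to 73 (log2 fold change -0.15, SE 0.14). Itgb7, the lymphocyte partner of alpha 4, had 19 to 39 counts (log2 fold change 0.19, SE 0.17). Itgae had 4 to 22 counts per library, and Itgad, Itgal and Itgax had 0 to 7, so these 4 stayed under the count minimum. The 10 macrophage markers summed to 11.9 to 18.5 CPM in DMSO and 12.7 to 20.97 CPM in BPS, with Csf1r at 0 in every library, and 0 of the 7 tested were called. At an unadjusted p under 0.05, 1 was lower and 0 higher by edgeR, and DESeq2 and limma-voom called 0. Of 9 lymphocyte markers, summing to 0.435 to 0.895 CPM in DMSO and 0.747 to 1.05 CPM in BPS, 1 was tested and it was not called, while Cd3e and Cd3g were at 0.

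Itgb1, the beta 1 subunit shared by most receptors named here, rose by a small amount, and each BPS library lay above every DMSO library. It stood at 1648, 1601, 1611, 1567 and 1626 CPM in DMSO and, in BPS, at 1712, 1715, 1658, 1715 and 1705 CPM. The lowest BPS library, replicate 3, lay just above the highest DMSO library, replicate 1. Means were 1610 ± 30.4 and 1701 ± 24.3 CPM (SD, n = 5 each), a rise of 5.62%, on 58210 to 68258 counts per library. On the log2 scale the change was 0.079 (SE 0.016, edgeR adjusted p = 0.0170). With library size alone as the scale it was 0.064, the lowest value of any alternative. Its only transcript in the table did not pass among transcripts (log2 fold change 0.080, edgeR adjusted p = 0.109).

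The other beta subunits did not pass the test. Itgb5, a partner of alpha V in vitronectin binding, stood at 367.9 ± 10.4 CPM in DMSO against 362.4 ± 8.96 CPM in BPS (log2 fold change -0.022, SE 0.023, edgeR adjusted p = 0.673). Itgb3, the other vitronectin receptor subunit, stood at 79.8 ± 5.82 and 85.9 ± 6.41 CPM (log2 fold change 0.11, SE 0.057, edgeR adjusted p = 0.348). Itgb4, the hemidesmosome subunit, had 44 to 73 counts per library and Itgb8, which activates TGF-beta with alpha V, had 27 to 41, with log2 fold changes of 0.11 (SE 0.12) and 0.27 (SE 0.14). Itgb6, the epithelial partner of alpha V, had 0 to 4 counts and was not tested.

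Of the 4 collagen-receptor alpha subunits none was called, but Itga11 and Itga1 were called when BPS replicate 1 was left out. Without that library, calls over all genes were also more, at 774 against 712 with every library. Leaving out any other single library gave 449 to 575. Itga11, the fibroblast receptor for fibrillar collagen, stood at 236.9, 244.2, 257.2, 236.5 and 237.3 CPM in DMSO and, in BPS, at 242.4, 288.7, 275.8, 266.4 and 284.8 CPM. BPS replicate 1 fell within the DMSO range and the other BPS libraries lay above it. The log2 fold change was 0.16 (SE 0.043), and the edgeR adjusted p was 0.0536. Without BPS replicate 1 it was 0.20 (SE 0.030, edgeR adjusted p = 0.00464), and without DMSO replicate 3 it was 0.19 (SE 0.044, edgeR adjusted p = 0.0455). The call was also made by the DESeq2 Wald test (adjusted p = 0.0085) and without a filter on low counts (edgeR adjusted p = 0.0498), within a range of 0.00464 to 0.357 over the alternatives.

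Itga1, a receptor for collagen IV, stood at 25.3, 26.2, 26.9, 23.98 and 24.6 CPM in DMSO and, in BPS, at 23.5, 29.4, 29.9, 28.7 and 30.1 CPM. BPS replicate 1 was the lowest of all 10 libraries and the other BPS libraries were above every DMSO library. The log2 fold change was 0.16 (SE 0.063, edgeR adjusted p = 0.196), and without BPS replicate 1 it was 0.22 (SE 0.037, edgeR adjusted p = 0.00763). Itga2, the platelet and epithelial collagen receptor, stood at 4.12 ± 0.422 and 4.70 ± 0.338 CPM (log2 fold change 0.19, SE 0.084, edgeR adjusted p = 0.251). Itga10, known from cartilage, stood at 3.27 ± 0.222 and 3.19 ± 0.153 CPM (log2 fold change -0.038, SE 0.074, edgeR adjusted p = 0.848). At an unadjusted p under 0.05, 3 of the 4 were higher and 0 lower by edgeR, against 10.2% and 8.59% of all genes, and limma-voom called 0.

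**Figure D3:**
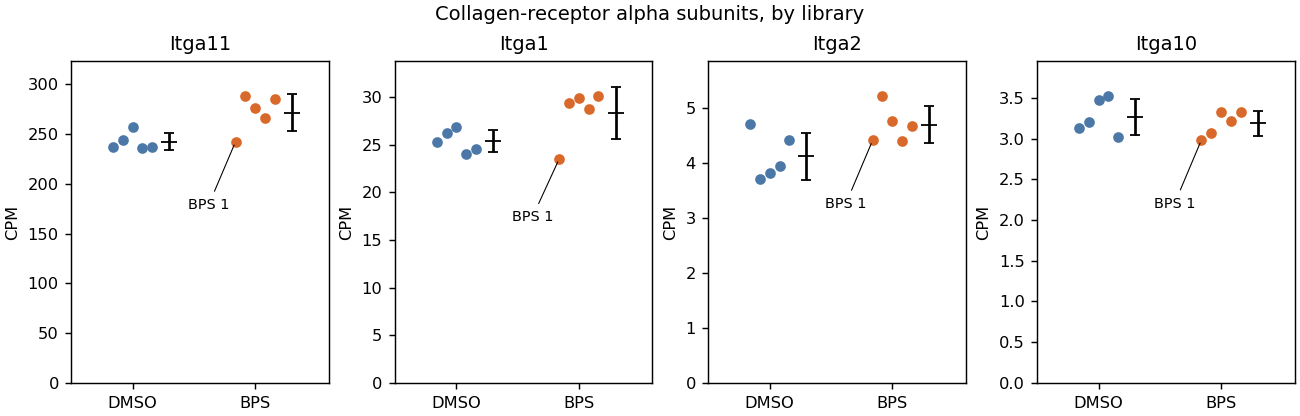
CPM of the 4 collagen-receptor alpha subunits in each library (points, replicates 1 to 5 from left to right), with the group mean and SD (n = 5 each) and BPS replicate 1 labelled. For Itga11 and Itga1 that library lies among or below the DMSO points, at 242.4 and 23.5 CPM, apart from the other BPS libraries.

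The laminin-receptor alpha subunits were higher on average without passing the test. Itga6, which pairs with beta 1 or beta 4, stood at 38.3 ± 4.19 CPM in DMSO against 42.9 ± 3.49 CPM in BPS (SD, n = 5 each), with overlapping groups and a log2 fold change of 0.17 (SE 0.075, edgeR adjusted p = 0.260). Itga7, the muscle laminin receptor, stood at 6.86, 5.40, 5.98, 6.16 and 6.65 CPM in DMSO and, in BPS, at 7.67, 6.86, 6.58, 7.19 and 7.22 CPM. Only DMSO replicates 1 and 5 reached into the BPS range, and the log2 fold change was 0.20 (SE 0.072, edgeR adjusted p = 0.157). Itga3 stood at 3.40 ± 0.274 and 3.44 ± 0.356 CPM (log2 fold change 0.018, SE 0.091, edgeR adjusted p = 0.947). Of these 3, 2 had an unadjusted p under 0.05, both higher, against 10.2% of all genes that were higher at that threshold, and DESeq2 and limma-voom called 0.

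Levels of different genes were compared per length, as CPM per kilobase. The CPM of the whole gene was divided by the mean length, weighted by counts, of its transcripts with a known length. For some low genes that length covers few of the counts, such as 10.7% for Cdh26, and Cdh12 had none. It is incomplete for some abundant genes too, covering 72.1% of counts for Itgb3 and 75.7% for Itga6. Itgb1 stood highest in DMSO at 422 ± 7.96 CPM per kilobase (SD, n = 5), followed by Cdh11 (140 ± 3.54), Itgb5 (112 ± 3.16), Itga5 (104 ± 3.51), Itgav (77.5 ± 2.18) and Itga11 (48.8 ± 1.78). Itgb5 and Itga5 were neighbours whose ranges of SD nearly met, and the gaps between the others exceeded their SD. Cdh2 (19.0 ± 0.715) came next, then Itgb3 (13.8 ± 1.01), Cdh3 (11.9 ± 0.612) and Itga6 (8.89 ± 0.972). Of the other genes that rose, Itga8 stood at 3.51 ± 0.157 and Itga4 at 1.74 ± 0.178 CPM per kilobase. Levels in DMSO of the reported members with a length went down to 0.0518 CPM per kilobase, for Cdh6.

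**Figure D4:**
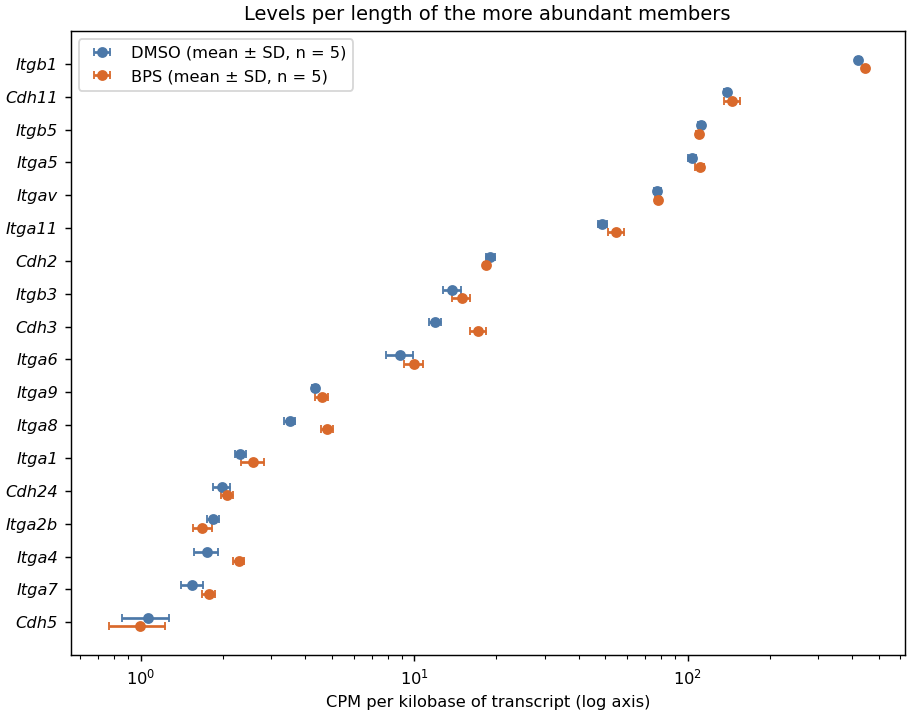
Mean CPM per kilobase with SD (n = 5 each) for members at 1 or more in DMSO, on a log axis, in DMSO and BPS. Itgb1 stands above all others, and the BPS point of Cdh3 moves from 11.9 to 17.1 CPM per kilobase, near that of Cdh2 at 18.3.

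On that per-length scale, the 14 alpha subunits summed to 250 to 263 CPM per kilobase in DMSO and to 266 to 284 in BPS, and the 7 beta subunits to 538 to 558 and 561 to 582. The ratio of beta to alpha was 2.14 ± 0.0352 in DMSO and 2.10 ± 0.0378 in BPS (SD, n = 5 each), and its ranges overlapped. Itga5 made up 40.6 ± 0.801% of the alpha sum in DMSO and 40.6 ± 1.28% in BPS, and Itga11 19.0 ± 0.959% and 19.99 ± 1.10%. The share of Itgav was 29.9 to 30.6% in DMSO and 27.9 to 29.4% in BPS, that of Itga8 1.32 to 1.42% and 1.66 to 1.94%, and that of Itga4 0.603 to 0.737% and 0.792 to 0.904%. None of these 3 shares overlapped between groups. Itga8 and Itga4 were already called by level, so their shares restate those calls. The level of Itgav itself did not pass the test, and its share is taken of an alpha sum that was higher in every BPS library. Of the sum over 12 cadherins, Cdh11 held 79.9 ± 0.657% in DMSO and 78.5 ± 0.851% in BPS, Cdh2 10.8 ± 0.573% and 9.85 ± 0.534%, and Cdh3 6.77 ± 0.302% and 9.21 ± 0.518%. These shares are descriptions, and no test was made of them.

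The list of the integrin-linked adhesion plaque holds genes of proteins that tie integrins to actin, and other genes too, such as Cav1. Of 34 tested genes of this list, 8 rose and 0 fell, or 23.5%, against 3.06% of all genes called higher and 1.82% lower. This list and those of the paragraphs below were chosen with earlier results of these data known. Their shares are therefore descriptions and not tests of the lists. The median log2 fold change was 0.058 against 0.00039 over all genes. At an unadjusted p under 0.05, 16 were higher and 1 lower by edgeR, and DESeq2 and limma-voom called 12 and 8 higher and 0 lower. The shares of all genes at these thresholds were 10.2% higher and 8.59% lower, 3.88% and 2.64%, and 3.02% and 1.74%. Vcl, encoding vinculin, rose from 434.1 ± 9.62 to 486.1 ± 11.9 CPM (SD, n = 5 each), or a log2 fold change of 0.16 (SE 0.021, edgeR adjusted p = 0.00115). Cav1, the caveolar coat protein, rose by 0.17 (SE 0.023), Tns1, or tensin 1, by 0.16 (SE 0.022) and Zyx, or zyxin, by 0.17 (SE 0.025) on the log2 scale, with adjusted p by edgeR of 0.00131, 0.00235 and 0.00260. Under matching of transcripts with their exact version, 4 genes of this list rose and 1 fell, and Tns1 lost its call (edgeR adjusted p = 0.325).

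Of 35 tested genes on the list of integrin ligands, 5 rose and 2 fell, or 20%. Over all genes tested 4.88% were called, 3.06% as higher and 1.82% as lower. The median log2 fold change of the ligands was 0.019, against 0.00039 over all genes. Thbs1, encoding thrombospondin 1, rose from 3071 ± 130.5 to 3745 ± 125.4 CPM (SD, n = 5 each), or a log2 fold change of 0.29 (SE 0.031, edgeR adjusted p = 0.000303). Ccn2, a matricellular ligand, rose by 0.31 (SE 0.025) and its relative Ccn1 by 0.18 (SE 0.019) on the log2 scale, with adjusted p by edgeR of 4.18e-05 and 0.000273. Vcam1, given above, had the smallest p of the list. The other gene that fell was Tgfb2 (log2 fold change -0.28, SE 0.056, edgeR adjusted p = 0.0167). Fn1, encoding fibronectin, and Npnt, encoding the alpha 8 ligand nephronectin, were looked up after their values were seen. Fn1 stood at 9803 ± 313.2 and 9933 ± 293.1 CPM (edgeR adjusted p = 0.758) and Npnt at 12.6 ± 0.808 and 13.8 ± 1.09 CPM (log2 fold change 0.14, SE 0.063, edgeR adjusted p = 0.266).

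Catenins and their scaffolds tie cadherins to actin. Of 19 tested cadherin partners, 1 rose and 1 fell, or 10.5%. Over all genes 4.88% were called, 3.06% as higher and 1.82% as lower, so these few calls lay near the background. The median log2 fold change of the partners was 0.033, against 0.00039 over all genes. Jup, encoding plakoglobin, the catenin relative that binds cadherin tails, rose from 30.8 ± 0.699 to 35.3 ± 1.76 CPM (log2 fold change 0.19, SE 0.035, edgeR adjusted p = 0.00932). Tjp1, encoding the scaffold ZO-1, fell from 114.9 ± 1.64 to 108.4 ± 1.997 CPM (log2 fold change -0.084, SE 0.018, edgeR adjusted p = 0.0213). The Tjp1 call was lost in 8 of 19 alternatives, with edgeR adjusted p of 0.255 under exact version matching and 0.051 to 0.054 without DMSO replicate 1, 2, 3 or 5 or BPS replicate 2 or 4. Jup lost its call under exact version matching (edgeR adjusted p = 0.214). Ctnnb1, encoding beta-catenin and looked up after its value was seen, stood at 791.3 ± 4.93 and 793.9 ± 6.22 CPM (edgeR adjusted p = 0.882), with a sign that changed under library size alone. Of 20 tested genes of the wider cadherin superfamily, 1 rose and 1 fell, or 10%, again near the background of 4.88%. They were Ret, a receptor kinase with cadherin repeats (log2 fold change 0.32, SE 0.074, edgeR adjusted p = 0.0291), and Clstn1, or calsyntenin 1 (-0.072, SE 0.016, edgeR adjusted p = 0.0269). Both calls were lost without DMSO replicate 1, DMSO replicate 2, DMSO replicate 5 or BPS replicate 4. Ret was also lost without DMSO replicate 4 or BPS replicate 2 or 3, and Clstn1 without DMSO replicate 3 or BPS replicate 5.

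**Figure D5:**
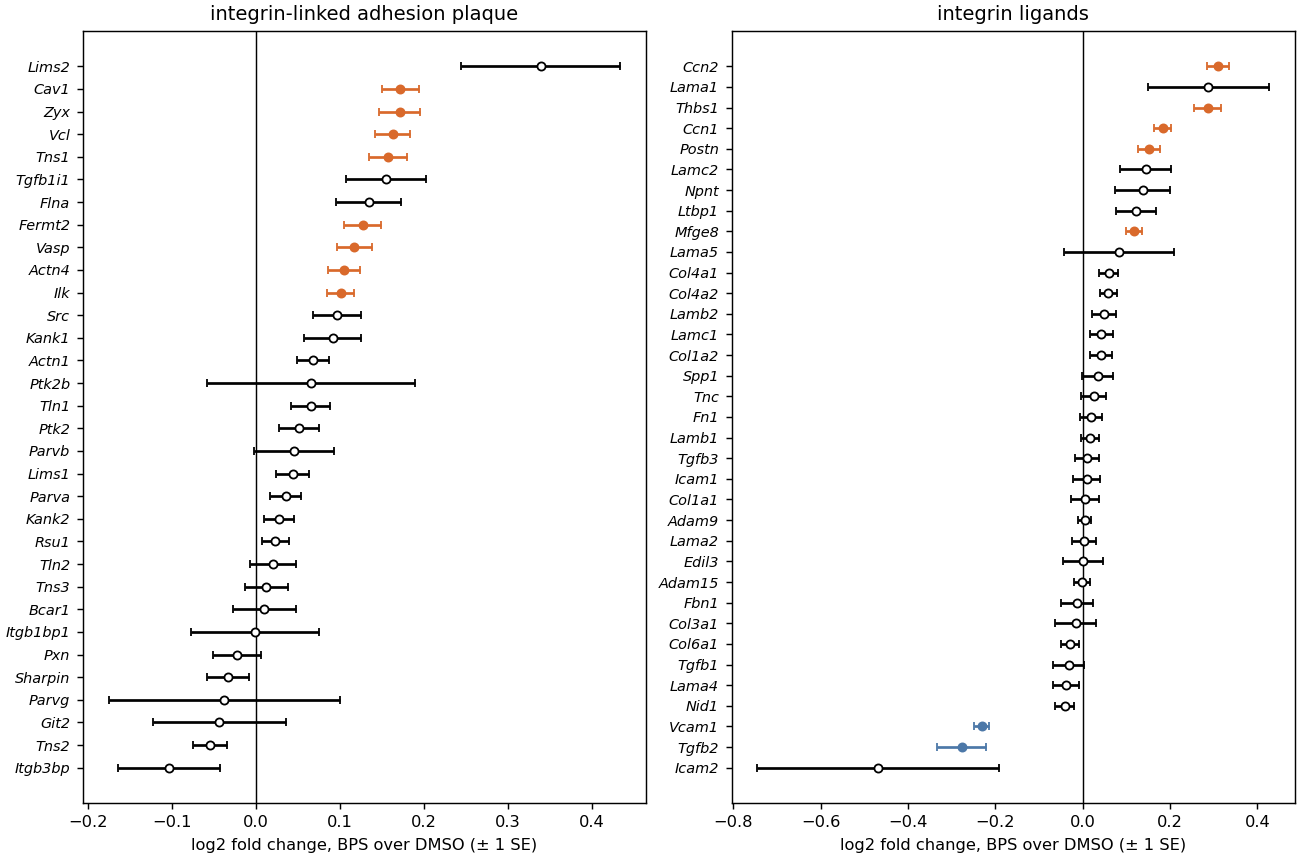
Log2 fold change of BPS over DMSO with bars of 1 SE for 32 tested genes of the adhesion plaque (left; 2 genes with an SE over 0.3 left out) and 35 tested integrin ligands (right); filled orange points rose and filled blue points fell at an adjusted p under 0.05. In the plaque panel all 8 filled points lie right of 0, while the ligand panel has 5 to the right and 2, one of them Vcam1, to the left.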

How the data were processed

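RNA sequencing libraries of 5 DMSO and 5 BPS samples were compared. Per the file headers and the submitters' processing notes, the authors deposited estimated counts per RefSeq transcript from kallisto 0.42.4, which splits ambiguous reads among similar transcripts. The index, genome build and strand setting are not given in the sources used here, so reads of a gene and an antisense partner cannot be told apart. Columns were tied to samples through the library codes that the labels give. Transcripts were assigned to genes by RefSeq accession without version through a table of GRCm38.p6, which placed 86722 of 107384 transcripts and 93.1% of counts, and gene sums were rounded. Genes kept by filterByExpr, 14597 in all, were scaled by TMM and tested by group alone with the quasi-likelihood test of edgeR, and p-values were adjusted over all of them by Benjamini-Hochberg. The standard error is the unshrunken log2 fold change divided by the square root of F. CPM is the gene's counts over the TMM-scaled library size. Lengths came from GENCODE M21 transcripts matched by accession, and promoter windows from RefSeq. The code was tested on simulated counts.

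The members and lists were chosen with earlier results of these data known. Every gene chosen by symbol was named. Values in all 10 libraries were given for called members, the 3 others of smallest p, and Itgav, Cdh11 and Itga1. Up to 4 called genes of smallest p were named from each list, and further genes, such as Tgfb2 and Fn1, were added. Alternatives were other scalings, filters, DESeq2, limma-voom, a replicate block, exact version matching, single transcripts and leaving out each library. The fits used edgeR 4.0.16, DESeq2 1.42.0 and limma 3.58.1 in R 4.3.3.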

Additional observations from a re-analysis of the deposited data

Results flagged for a closer look

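Among 112 groups of 5 values from 56 named genes, 14 held a library that stood apart from the other 4 by Dixon's criterion at the 95% level, where chance flags about 1 in 20 groups, or 5.6. The values are given without explanation.

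Of the members, Itga8 was highest in BPS replicate 5, at 30.6 CPM against 27.2 to 27.4 CPM in the other BPS libraries. Itga1 was lowest in BPS replicate 1, at 23.5 CPM against 28.7 to 30.1 CPM. BPS replicate 3 was low for Itgb1, at 1658 CPM against 1705 to 1715 CPM, and for Cdh2, at 85.7 CPM against 88.98 to 89.6 CPM.

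Of the partner genes and markers, BPS replicate 1 was highest for Jup (38.3 CPM against 33.7 to 34.8) and Des (24.5 CPM against 19.7 to 20.7). BPS replicate 2 was highest for Ccn2 (673.1 CPM against 626.5 to 631.1) and Cspg4 (48.1 CPM against 41.7 to 43.1). BPS replicate 5 was lowest for Zyx, at 553.0 CPM against 589.9 to 604.9. DMSO replicate 1 was lowest for Ccn1 (381.8 CPM against 398.2 to 403.4) and Mcam (17.6 CPM against 20.3 to 21.2). DMSO replicate 3 was lowest for Cd34, at 42.5 CPM against 45.6 to 46.5. DMSO replicate 4 was lowest for Vcl (417.1 CPM against 436.4 to 440.2) and Tjp1 (112.1 CPM against 115.0 to 116.0).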

How the results depend on the processing

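Of 79 alternative values for the 4 called members, 75 kept direction and call, and 4 lost the call. These were Itgb1 with the replicate block (adjusted p = 0.0556 by edgeR) and Itga8, Itga4 and Itgb1 as single transcripts. As transcripts, their unadjusted p by edgeR was 0.00116, 0.000426 and 0.000606, against 2.15e-07, 7.4e-05 and 0.000378 as genes. The cause was not tested. Genes called over all genes were 712, but 374 with the replicate block and 328 with exact version matching, and 449 to 774 when single libraries were left out, with 449 without DMSO replicate 2 and 462, 465 and 462 without the BPS libraries 2, 3 and 4. Scaling by library size alone gave 334 higher and 394 lower in place of 447 and 265. Same-numbered DMSO and BPS libraries deviated from their group means with correlations of 0.10, 0.004, -0.067, 0.072 and -0.078, which gives no pairing. Integrin calls were 3, and 3 to 5 without single libraries, 5 without BPS replicate 1, and 2 with the replicate block and 2 with exact version matching, where Itga4 had no matching transcript; cadherin calls were 1 throughout. Adhesion plaque calls were 8, and 5 with exact version matching. Cadherin partner calls were 2, 1 with the replicate block, 0 with exact version matching, and 1 to 2 without single libraries, with 1 without any of DMSO replicates 1, 2, 3 and 5 and BPS replicate 4. Without BPS replicate 2 the count stayed at 2 although Tjp1 was lost. Calls in the wider superfamily were 2, 0 with the replicate block, 0 with exact version matching, and 0 to 2 without single libraries: 0 without DMSO replicate 1, 2 or 5 or BPS replicate 4, and 1 without DMSO replicate 3 or 4 or BPS replicate 2, 3 or 5.

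Direction changed in 30 of 598 values of the 30 members not called, and 19 of these members kept it throughout. With exact version matching the log2 fold change was -0.33 for Cdh10, 0.60 for Cdh18, -0.22 for Itga3, 0.000135 for Itgb2 and -0.14 for Itgb4. As the most abundant transcript it was -0.45 for Cdh13, 0.15 for Cdh17, 0.60 for Cdh18, -0.096 for Itga3, 0.0032 for Itgb2 and -0.46 for Itgb4. With library size alone it was -0.0067 for Itgav and -0.010 for Ctnnb1. Without single libraries it ran from -0.058 to 0.13 for Cdh13, -0.093 to 0.11 for Cdh18, -0.25 to 0.031 for Cdh26, -0.20 to 0.032 for Cdh5, -0.032 to 0.069 for Itga3, -0.28 to 0.11 for Itgam and -0.0055 to 0.022 for Itgav. Members under about 50 counts per library could show only large differences.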

Other observations

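Within the DMSO group, the same libraries were often the highest for integrins. DMSO replicates 1 and 5 were the 2 highest DMSO libraries in 9 of 21 integrin genes, or 42.9%, against 12.8% of all 14597 genes tested and 3 of 13 cadherin genes. The 9 were Itga2, Itga4, Itga5, Itga6, Itga7, Itgav, Itgb1, Itgb2 and Itgb3, so they include both main fibronectin receptor subunits and their shared partner. For Itgb3 these libraries stood at 86.0 and 86.2 CPM, against 76.6, 75.2 and 74.9 CPM in DMSO replicates 2, 3 and 4. For Itga6 they stood at 41.0 and 43.7 CPM, against 38.4, 34.7 and 33.7 CPM. The pattern was noticed in these data and was not tested. BPS replicate 1 was the lowest BPS library in 6 of 21 integrin genes and 6 of 13 cadherin genes, against 22.3% of all genes tested.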
